A study of Arabidopsis thaliana with 8 samples.

Results

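Messenger RNA of whole *Arabidopsis thaliana* seedlings was compared between 2 double mutants, *fry1-6 rdr6-11* against *fry1-6 rdr1-1*. The comparison used 4 of the 8 libraries of the series, 2 for each double mutant, taken by their titles because the genotype tag of the *fry1-6 rdr1-1* libraries repeats that of *fry1-6 rdr6-11*. The other libraries were 2 of *fry1-6* and 2 of wild type (WT). All genes were considered: 37361 were counted, and 22744 passed the filter on low counts and were tested. Both double mutants carried *fry1-6*, an insertion allele of *FIERY1* (*FRY1*, AT5G63980, listed as *SAL1*), and they differed by *rdr6-11* in *RDR6* (AT3G49500) or *rdr1-1* in *RDR1* (AT1G14790). The background was Columbia-0. The study's methods list a single stock for each allele, so each allele stood for its gene through 1 line. The labels give seedlings 12 days old, called two-week in another field, from a chamber at 23 °C with 16 h of light and no treatment, whereas the study's methods describe short days and a slightly lower temperature. No source gives the hour of harvest. The design text calls the 2 libraries of a genotype biological replicates, and p-values measured only the spread between such libraries.

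The RDR enzymes use RNA as a template: they turn single-stranded into double-stranded RNA, from which Dicer enzymes cut small interfering RNAs (siRNAs). RDR6 is best known for the trans-acting siRNAs (tasiRNAs) made from *TAS* transcripts and for silencing of transgenes and aberrant messenger RNAs, and RDR1 for antiviral siRNAs. FRY1 is a phosphatase that removes the nucleotide PAP, an inhibitor of 5′-to-3′ exonucleases, so transcripts that these enzymes would degrade can enter the siRNA pathway in *fry1* mutants. Since FRY1 is mutated on both sides here, the comparison is between a mutation of *RDR6* and a mutation of *RDR1*.

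Levels are given as CPM, counts scaled to a common library size after TMM normalization, a correction for unequal RNA composition, and CPM compares libraries, not genes of different length. Differences are log2 fold changes of *fry1-6 rdr6-11* over *fry1-6 rdr1-1*, each with its standard error (SE), so a negative value means a lower level in *fry1-6 rdr6-11*. A gene was called where edgeR's quasi-likelihood test, fitted on all 8 libraries, gave a Benjamini-Hochberg adjusted p under 0.05 over all genes tested. The *fry1-6 rdr6-11* libraries held 20687446 and 17802234 counts, against 23295303 and 26285519 in *fry1-6 rdr1-1*. The share of counts on chloroplast genes was 2.47% and 2.29% in *fry1-6 rdr6-11*, against 2.80% and 2.40% in *fry1-6 rdr1-1*, and at most 0.173% in any *fry1-6* or WT library. The 10 genes of most counts took 6.27% and 5.85% in *fry1-6 rdr6-11*, against 10.3% and 9.15% in *fry1-6 rdr1-1*. Over all genes the log2 CPM of the replicates correlated at 0.983 in *fry1-6 rdr6-11* and 0.971 in *fry1-6 rdr1-1*, and pairs across the double mutants at 0.940 to 0.963, across genes, which are not independent replicates. In whole seedlings, fewer cells of a type and less RNA per cell cannot be told apart.

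The mutated genes did not check the labels. *RDR6* had 12.1 and 20.7 CPM in *fry1-6 rdr6-11*, against 11.02 and 19.5 CPM in *fry1-6 rdr1-1*, 21.5 and 17.3 CPM in *fry1-6* and 39.5 and 20.2 CPM in WT. In both double mutants the library of replicate 2 was the higher, and the genotypes overlapped (log2 fold change 0.10 ± 0.43 (SE), adjusted p = 0.93). *RDR1* had 38.9 and 20.9 CPM in *fry1-6 rdr6-11*, against 28.8 and 19.5 CPM in *fry1-6 rdr1-1*, and here replicate 2 was the lower library in both genotypes (log2 fold change 0.31 ± 0.44 (SE), adjusted p = 0.77). *FRY1* had 80.6 and 151 CPM in *fry1-6 rdr6-11*, against 55.0 and 118 CPM in *fry1-6 rdr1-1*, 101 and 93.6 CPM in *fry1-6* and 49.1 and 27.5 CPM in WT, again higher in replicate 2 of both double mutants. Counts per gene carry no position, so an allele disrupted by an insertion can still be counted, and none of these values tells the alleles apart.

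Most transcripts known as readouts of RDR6 were higher in replicate 2 of both double mutants, 4 of the 5 *TAS* transcripts and 6 of the 7 tasiRNA targets tested. That count took a difference of any size and was not made over all genes, so it has no base rate beside it. Loss of RDR6 is known to remove tasiRNAs and to raise their targets, which include *ARF3* (listed as *ETT*) and *ARF4*, auxin response factors that set leaf polarity and the timing of leaf traits. *ARF4* had 45.4 and 100.03 CPM in *fry1-6 rdr6-11*, against 30.5 and 79.2 CPM in *fry1-6 rdr1-1*, 51.1 and 42.2 CPM in *fry1-6* and 46.4 and 23.2 CPM in WT. *ARF3* had 32.8 and 58.7 CPM in *fry1-6 rdr6-11*, against 31.9 and 80.3 CPM in *fry1-6 rdr1-1*, so both factors were higher in replicate 2 of each double mutant. The tasiRNA precursor *TAS2* had 11.05 and 26.7 CPM in *fry1-6 rdr6-11*, against 8.57 and 21.9 CPM in *fry1-6 rdr1-1*. *TAS1C* had 6.80 and 17.4 CPM in *fry1-6 rdr6-11*, against 4.91 and 22.9 CPM in *fry1-6 rdr1-1*, and both precursors showed the same split by replicate number. Of the 5 *TAS* transcripts tested none was called, and of the 7 tasiRNA targets tested none was called, by edgeR or by DESeq2, with 0 of either group at an unadjusted p under 0.05. No *TAS* transcript separated the double mutants by title. Of the 7 targets *ARF2* and *PAP1* did, lower in *fry1-6 rdr6-11*, a share near that of all genes tested (6422 of 22744). *ARF2* had 333 and 325 CPM in *fry1-6 rdr6-11*, against 383 and 400.0 CPM in *fry1-6 rdr1-1*, *PAP1* (AT1G56650), a Myb factor of anthocyanin synthesis, had 0.255 and 0.46 CPM in *fry1-6 rdr6-11*, against 1.11 and 3.88 CPM in *fry1-6 rdr1-1*, and neither was called (adjusted p = 0.472 and 0.331). *TAS3* was the precursor without a split by replicate number, with 13.4 and 10.5 CPM in *fry1-6 rdr6-11*, against 10.3 and 10.5 CPM in *fry1-6 rdr1-1*. *AT5G18040*, a target of *TAS1* siRNAs, had 17.4 and 38.1 CPM in *fry1-6 rdr6-11*, against 16.3 and 28.1 CPM in *fry1-6 rdr1-1*. Genes chosen after their values were seen showed the split more sharply: *AT5G24240*, which encodes a phosphatidylinositol 4-kinase-like protein, had 18.7 and 0.598 CPM in *fry1-6 rdr6-11*, against 20.05 and 0.525 CPM in *fry1-6 rdr1-1*, while the *fry1-6* and WT libraries held at most 0.585 CPM. The noncoding RNA *AT5G38005* had 6.71 and 0.552 CPM in *fry1-6 rdr6-11*, against 6.99 and 0.242 CPM in *fry1-6 rdr1-1*. Replicate 2 was at least 2-fold above replicate 1 in both double mutants for 22 of the 22744 genes and at least 2-fold below it in both for 50, and 16 genes moved at least 2-fold in opposite directions, after adding 0.5 CPM. Genotypes below are therefore the genotypes as labelled, and whether titles or replicate numbers mark the rdr alleles was not tested.

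**Figure D1:**
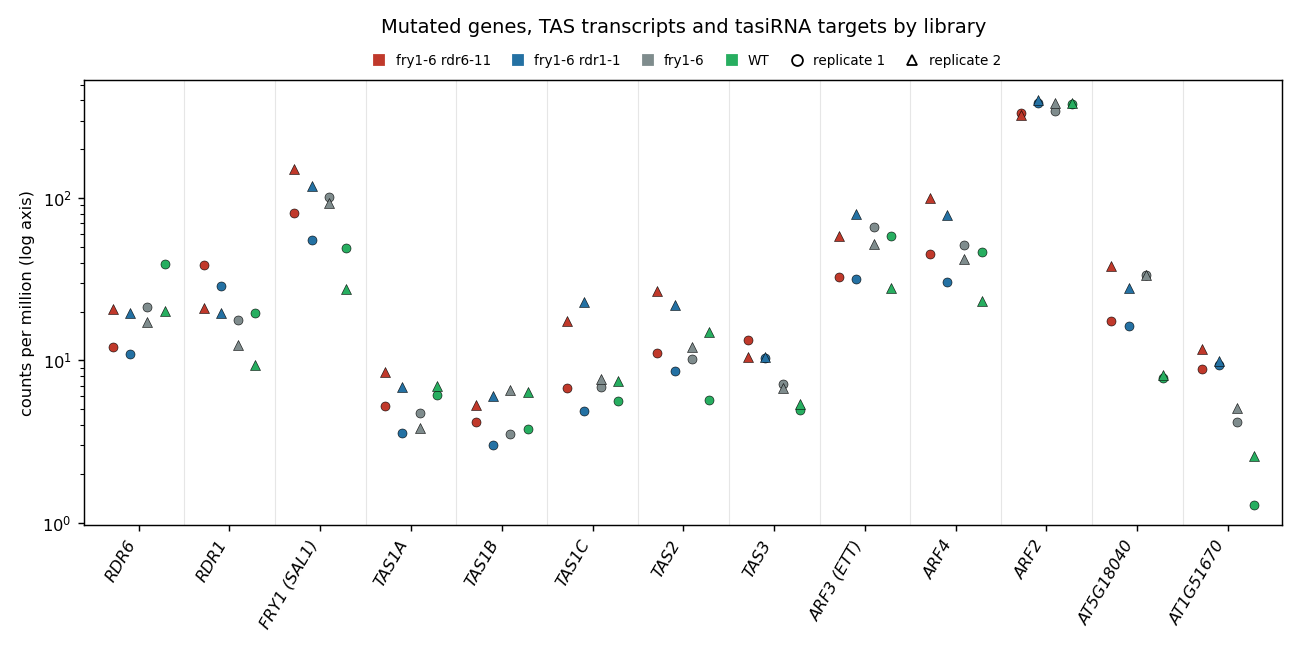
CPM (log axis) of *RDR6*, *RDR1* and *FRY1*, the *TAS* transcripts and the tasiRNA targets *ARF3*, *ARF4*, *ARF2*, *AT5G18040* and *AT1G51670*. Circles mark replicate 1 and triangles replicate 2 of each genotype, and the targets *PAP1* and *AT4G29770* are not drawn. In both double mutants *TAS2*, *TAS1C*, *ARF3* and *ARF4* sit higher in replicate 2 than in replicate 1, and the genotypes overlap.

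Most genes that passed the test were lower in *fry1-6 rdr6-11*. Of 22744 genes tested 251 were called (1.10%), 228 of them lower (1.00%) and 23 higher (0.101%) in *fry1-6 rdr6-11*. The median log2 fold change of all genes tested was 0.02. At an unadjusted p under 0.05 it was 2243 lower and 1474 higher, and the libraries of the double mutants did not overlap in 6422 genes with *fry1-6 rdr6-11* lower and 6862 with it higher. Of the called genes 241 differed at least 2-fold, 104 were at least 4-fold lower and 4 at least 4-fold higher. Both *fry1-6 rdr6-11* libraries lay below all 6 other libraries in 209 of the 228 genes called lower, against 2842 of all 22744 genes tested. Both *fry1-6 rdr1-1* libraries lay above the other 6 in 89 of the 228, against 1336 of all genes tested. Among the 23 genes called higher, both *fry1-6 rdr6-11* libraries were the highest of the 8 in 20, against 2891 of all genes tested. Called genes were chosen for a difference between the double mutants, which these positions also need, so part of the excess was set by that choice. All of the 2842 and the 1336 lie among the 6422 genes with *fry1-6 rdr6-11* lower, and the 2891 among the 6862 with it higher.

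The calls rested on all 4 double-mutant libraries. Without *fry1-6 rdr6-11* replicate 1, without *fry1-6 rdr6-11* replicate 2 or without *fry1-6 rdr1-1* replicate 1 edgeR called 0 genes, with 2391, 1621 and 2830 genes at an unadjusted p under 0.05, and without *fry1-6 rdr1-1* replicate 2 it called 28, of which 27 were lower. Without a *fry1-6* library it called 31 or 30 genes, all lower, and without a WT library 488. The smallest adjusted p was 0.0113, so no gene passed at 0.01. DESeq2 called 1283 genes, 1032 of them lower, and 250 of the 251 were among them, while edgeR on the 4 double-mutant libraries alone called 1121, including all 251. Scaling to total counts in place of TMM moved the median of all genes to 0.35, and then 100 genes were called lower and 41 higher.

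**Figure D2:**
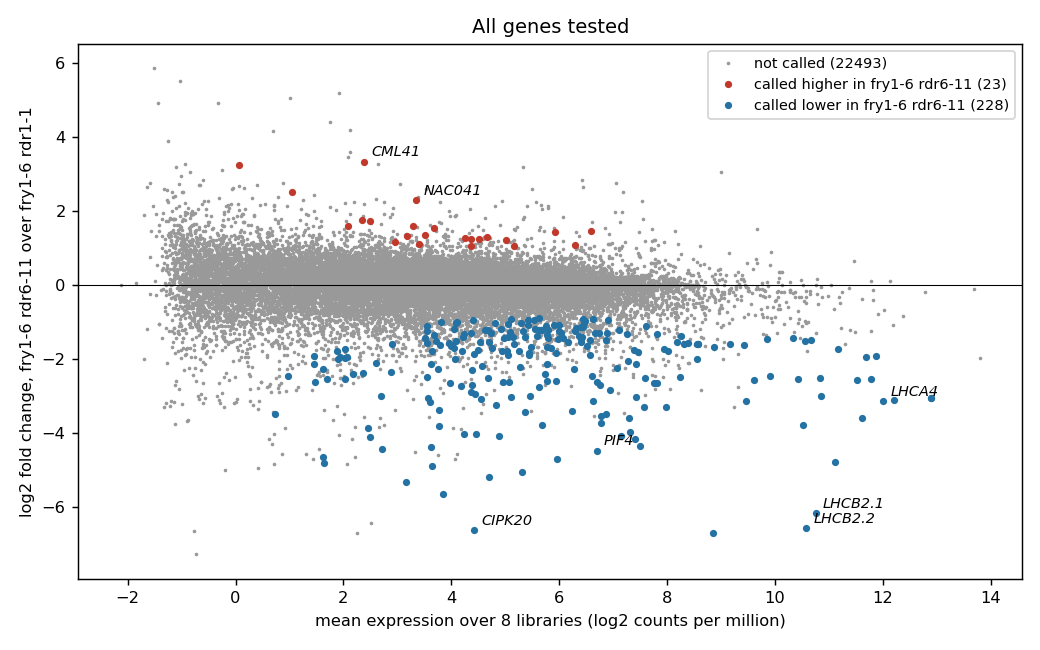
Log2 fold change of *fry1-6 rdr6-11* over *fry1-6 rdr1-1* against the mean level over 8 libraries (log2 CPM), 1 point a gene. The 228 genes called lower (blue) reach −6.70, whereas the 23 called higher (red) reach 3.33.

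Of the hand-written functional groups, the chlorophyll-binding antenna of photosynthesis had the largest share of its members called lower. Light-harvesting proteins hold chlorophyll around photosystem I (LHCA) and photosystem II (LHCB), and their genes are known to respond to light, to the circadian clock and to signals from the chloroplast. Of 14 light-harvesting genes tested 11 fell in *fry1-6 rdr6-11* (78.6%, against 1.00% of all genes tested) and none rose. Their median log2 fold change was −2.84, against 0.02 over all genes. Both *fry1-6 rdr6-11* libraries lay below the other 6 in all 14, against 2842 of all 22744 genes tested. The summed level of the group was 17843 and 14546 CPM in *fry1-6 rdr6-11*, against 89371 and 77283 CPM in *fry1-6 rdr1-1*, 71104 and 56146 CPM in *fry1-6* and 69790 and 42519 CPM in WT.

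*LHCB2.1*, a subunit of the mobile photosystem II antenna, had 52.6 and 41.3 CPM in *fry1-6 rdr6-11*, against 4053 and 2759 CPM in *fry1-6 rdr1-1*, 2889.8 and 1711 CPM in *fry1-6* and 1553 and 751 CPM in WT. The *fry1-6 rdr6-11* libraries stood far below all others (log2 fold change −6.18 ± 0.53 (SE), adjusted p = 0.0156). Both WT libraries lay below those of *fry1-6* and *fry1-6 rdr1-1*, which overlapped each other. Its neighbour on chromosome 2, *LHCB2.2*, had 39.9 and 23.1 CPM in *fry1-6 rdr6-11*, against 3582 and 2437 CPM in *fry1-6 rdr1-1*, and *LHCB2.3*, which was not among the 14 listed, had 13.4 and 9.19 CPM in *fry1-6 rdr6-11*, against 1591 and 762 CPM in *fry1-6 rdr1-1*. Both fell as well (log2 fold change −6.58 ± 0.60 (SE), adjusted p = 0.0167 for *LHCB2.2*, and log2 fold change −6.70 ± 0.60 (SE), adjusted p = 0.0157 for *LHCB2.3*). These near-identical paralogs are uncertain singly, because a read with several equally good positions was given 1 position. *LHCB3*, another photosystem II antenna subunit, had 176 and 116 CPM in *fry1-6 rdr6-11*, against 4632 and 3459 CPM in *fry1-6 rdr1-1* (log2 fold change −4.79 ± 0.48 (SE), adjusted p = 0.0229). *LHCB4.2*, a minor antenna subunit also called CP29, had 182 and 138 CPM in *fry1-6 rdr6-11*, against 2472 and 1959.5 CPM in *fry1-6 rdr1-1*, 2060.4 and 1907 CPM in *fry1-6* and 1813 and 1145 CPM in WT. It fell to 0.0722 of the *fry1-6 rdr1-1* mean, while its paralog *LHCB4.1* had 2511 and 2237 CPM in *fry1-6 rdr6-11*, against 5145 and 4976 CPM in *fry1-6 rdr1-1* and was not called (log2 fold change −1.09 ± 0.20 (SE), adjusted p = 0.0728). Of the photosystem I antenna, *LHCA4* had 861 and 613 CPM in *fry1-6 rdr6-11*, against 7137 and 5987 CPM in *fry1-6 rdr1-1* and fell (log2 fold change −3.15 ± 0.31 (SE), adjusted p = 0.0212). *LHCA1* and *LHCA3* fell too, with log2 fold changes of −2.56 and −1.97, whereas *LHCA2* at −1.25 was not called (adjusted p = 0.0791). The *LHCB1* genes are near-identical as well: *CAB2* and *CAB3* fell (−3.11 and −3.60), and *CAB1* at −1.99 missed the threshold (adjusted p = 0.0552).

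**Figure D3:**
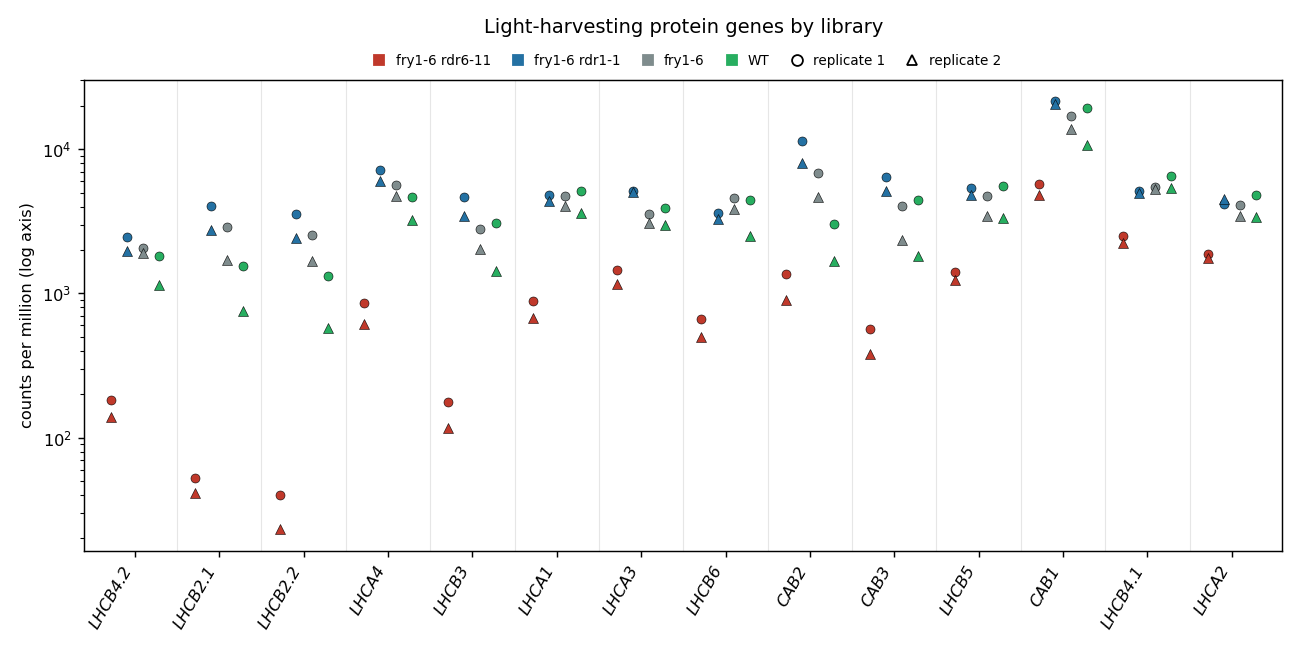
CPM (log axis) of the 14 light-harvesting genes in every library, with circles for replicate 1 and triangles for replicate 2. The red points of *fry1-6 rdr6-11* are the lowest for every gene and are furthest from the rest for *LHCB2.1* and *LHCB2.2*, at 23.1 to 52.6 CPM.

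Fewer genes were called outside the antenna. Among 32 photosystem subunits, electron carriers and carbon-fixation enzymes 4 fell (12.5%, against 1.00% of all genes tested) and none rose. The median log2 fold change was −0.82. Those 4 were the photosystem I subunits *PSAO*, *PSAN* and *PSAE-1* and the electron carrier plastocyanin, *PETE1*. *PSAO* had 669 and 523 CPM in *fry1-6 rdr6-11*, against 1921 and 2067 CPM in *fry1-6 rdr1-1* (log2 fold change −1.74 ± 0.22 (SE), adjusted p = 0.0293). *PETE1*, with 138 and 112 CPM in *fry1-6 rdr6-11*, against 277 and 262 CPM in *fry1-6 rdr1-1*, moved less (log2 fold change −1.10 ± 0.18 (SE), adjusted p = 0.0467). Of the uncalled genes, the Rubisco small subunit *RBCS1A*, which fixes carbon dioxide, had 15243 and 13332 CPM in *fry1-6 rdr6-11*, against 16048 and 14658 CPM in *fry1-6 rdr1-1*, and its libraries lay within the spread of the other genotypes (log2 fold change −0.10 ± 0.30 (SE), adjusted p = 0.898). *GAPA*, a Calvin cycle dehydrogenase, had 2349 and 1941 CPM in *fry1-6 rdr6-11*, against 2380.2 and 1948 CPM in *fry1-6 rdr1-1* (log2 fold change −0.01 ± 0.21 (SE), adjusted p = 0.983). Over the 46 nuclear photosynthesis genes together, 15 fell and the median was −1.17. Without *fry1-6 rdr6-11* replicate 1, *fry1-6 rdr6-11* replicate 2 or *fry1-6 rdr1-1* replicate 1 the count was 0, without *fry1-6 rdr1-1* replicate 2 it was 3, and by DESeq2 it was 29, while the median stayed between −0.99 and −1.34 in those fits. The genes of the chloroplast genome, which encode the photosystem cores, did not pass the test: 0 of 111 were called by edgeR or DESeq2, 4 had an unadjusted p under 0.05, and the median was −0.36.

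Genes of chlorophyll synthesis fell along with those of the proteins that bind chlorophyll. Of 14 tetrapyrrole genes tested 5 fell (35.7%, against 1.00% of all genes tested) and none rose (median −1.31). *CAO*, listed as *CH1*, encodes the oxygenase that makes chlorophyll b, and had 16.9 and 17.5 CPM in *fry1-6 rdr6-11*, against 376 and 211 CPM in *fry1-6 rdr1-1*, 216 and 163 CPM in *fry1-6* and 83.8 and 44.2 CPM in WT. The *fry1-6 rdr6-11* libraries were below those of every other genotype, WT included (log2 fold change −4.09 ± 0.43 (SE), adjusted p = 0.0234). *HEMA1*, the glutamyl-tRNA reductase that starts the pathway, had 161 and 174 CPM in *fry1-6 rdr6-11*, against 837 and 509 CPM in *fry1-6 rdr1-1* (log2 fold change −2.01 ± 0.29 (SE), adjusted p = 0.0369). *GUN5*, the large subunit of magnesium chelatase, had 488 and 463 CPM in *fry1-6 rdr6-11*, against 3062 and 2362 CPM in *fry1-6 rdr1-1* (log2 fold change −2.51 ± 0.38 (SE), adjusted p = 0.0434). The cyclase subunit *CRD1* and the protochlorophyllide reductase *PORB* fell by 2.48 and 2.57 on the log2 scale. The other 9 genes were not called, among them *NYC1* and *NYE1*, which act in chlorophyll breakdown and not in synthesis (log2 fold changes −0.49 and −0.33). *GUN4*, a cofactor of the chelatase, had 45.1 and 48.1 CPM in *fry1-6 rdr6-11*, against 191 and 132 CPM in *fry1-6 rdr1-1* (log2 fold change −1.79 ± 0.41 (SE), adjusted p = 0.112). *PORA*, another protochlorophyllide reductase, had low counts throughout, with 0.212 and 0.0919 CPM in *fry1-6 rdr6-11*, against 1.06 and 0.525 CPM in *fry1-6 rdr1-1* (log2 fold change −2.31 ± 0.90 (SE), adjusted p = 0.277). *CHLI1*, the chelatase's ATPase subunit, had a log2 fold change of −0.61 (adjusted p = 0.243), and the methyltransferase *CHLM* of −0.41 (adjusted p = 0.301). None of the 14 was called without *fry1-6 rdr6-11* replicate 1, *fry1-6 rdr6-11* replicate 2 or *fry1-6 rdr1-1* replicate 1, and without *fry1-6 rdr1-1* replicate 2 it was 1. Total-count scaling called 2.

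Genes of the circadian clock were low in the same libraries. The plant clock is a loop of transcription factors that are expressed in turn through the day: CCA1 and LHY around dawn, the pseudo-response regulators PRR9, PRR7 and PRR5 through the day, and TOC1 and the evening complex around dusk. Of 23 clock genes tested 6 fell in *fry1-6 rdr6-11* (26.1%, against 1.00% of all genes tested) and none rose. A negative log2 fold change was found in 22 of the 23, against 10990 of all 22744 genes tested, and the median was −1.70. The 6 were *PRR7*, *PRR5*, *GI*, *LNK1*, *LNK2* and *CDF1*, whose transcripts are known to peak between dawn and late afternoon.

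*PRR7* had 27.9 and 17.9 CPM in *fry1-6 rdr6-11*, against 236 and 219 CPM in *fry1-6 rdr1-1*, 326 and 280.2 CPM in *fry1-6* and 227 and 193 CPM in WT. Both *fry1-6 rdr6-11* libraries were below all 6 others (log2 fold change −3.31 ± 0.26 (SE), adjusted p = 0.0156). *PRR5* had 12.6 and 9.88 CPM in *fry1-6 rdr6-11*, against 118 and 135 CPM in *fry1-6 rdr1-1*, 241 and 168 CPM in *fry1-6* and 156 and 95.4 CPM in WT, and *fry1-6 rdr6-11* was again the lowest genotype (log2 fold change −3.49 ± 0.32 (SE), adjusted p = 0.0167). *GI*, which stabilises the photoreceptor ZTL and promotes flowering in long days, had 13.1 and 8.60 CPM in *fry1-6 rdr6-11*, against 122 and 221 CPM in *fry1-6 rdr1-1*, 273 and 175 CPM in *fry1-6* and 317 and 141 CPM in WT (log2 fold change −3.98 ± 0.54 (SE), adjusted p = 0.0312). *LNK1* (AT5G64170) and *LNK2* (AT3G54500) encode coactivators induced by light. *LNK2* had 4.29 and 3.22 CPM in *fry1-6 rdr6-11*, against 134 and 64.4 CPM in *fry1-6 rdr1-1* (log2 fold change −4.72 ± 0.41 (SE), adjusted p = 0.0156). *LNK1* had 2.63 and 1.33 CPM in *fry1-6 rdr6-11*, against 68.3 and 65.9 CPM in *fry1-6 rdr1-1* (log2 fold change −5.07 ± 0.66 (SE), adjusted p = 0.0304). *CDF1*, a repressor of the flowering gene *CO*, had 0.467 and 0.644 CPM in *fry1-6 rdr6-11*, against 12.5 and 11.8 CPM in *fry1-6 rdr1-1* (log2 fold change −4.44 ± 0.62 (SE), adjusted p = 0.0345). *CO* itself had 13.2 and 14.8 CPM in *fry1-6 rdr6-11*, against 2.50 and 4.85 CPM in *fry1-6 rdr1-1* and was the highest in *fry1-6 rdr6-11*, but it missed the threshold (log2 fold change 1.92 ± 0.41 (SE), adjusted p = 0.0997).

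Below the threshold the other clock genes varied. Both *fry1-6 rdr6-11* libraries lay below the other 6 in 11 of all 23 and below both *fry1-6 rdr1-1* libraries in 19. Over all 22744 genes tested these counts were 2842 and 6422. *LUX*, listed as *PCL1*, of the evening complex, had 33.4 and 31.5 CPM in *fry1-6 rdr6-11*, against 59.8 and 132 CPM in *fry1-6 rdr1-1*, 98.6 and 149.8 CPM in *fry1-6* and 119.8 and 158 CPM in WT and was among the 11, although not called (log2 fold change −1.56 ± 0.40 (SE), adjusted p = 0.137). *LHY*, the partner of CCA1, had 3.27 and 3.54 CPM in *fry1-6 rdr6-11*, against 16.7 and 5.41 CPM in *fry1-6 rdr1-1* (log2 fold change −1.70 ± 0.66 (SE), adjusted p = 0.28). *CCA1* had 13.9 and 13.1 CPM in *fry1-6 rdr6-11*, against 75.2 and 32.2 CPM in *fry1-6 rdr1-1*, 60.01 and 43.8 CPM in *fry1-6* and 2.07 and 1.23 CPM in WT. The *fry1-6 rdr6-11* libraries were below *fry1-6 rdr1-1* and *fry1-6* yet above WT, and the difference was not called (log2 fold change −1.99 ± 0.42 (SE), adjusted p = 0.0966). *TOC1* had 101 and 88.6 CPM in *fry1-6 rdr6-11*, against 80.0 and 236 CPM in *fry1-6 rdr1-1*, so the *fry1-6 rdr1-1* replicates differed from each other by more than the genotypes did (log2 fold change −0.74 ± 0.46 (SE), adjusted p = 0.476). *ELF4*, of the evening complex, had 17.0 and 15.9 CPM in *fry1-6 rdr6-11*, against 10.6 and 61.0 CPM in *fry1-6 rdr1-1*, with the *fry1-6 rdr6-11* libraries between the *fry1-6 rdr1-1* libraries. The same spread appeared in *GRP7*, an RNA-binding protein whose transcript peaks in the evening, with 792 and 695 CPM in *fry1-6 rdr6-11*, against 409 and 1312 CPM in *fry1-6 rdr1-1*. Clock and photosynthesis genes thus moved together between libraries whose hour of harvest is not known, and time of harvest and genotype cannot be told apart. Without *fry1-6 rdr6-11* replicate 1, *fry1-6 rdr6-11* replicate 2 or *fry1-6 rdr1-1* replicate 1 none of the 23 clock genes was called, without *fry1-6 rdr1-1* replicate 2 it was 2, and the median lay between −1.57 and −2.10. DESeq2 called 12.

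**Figure D4:**
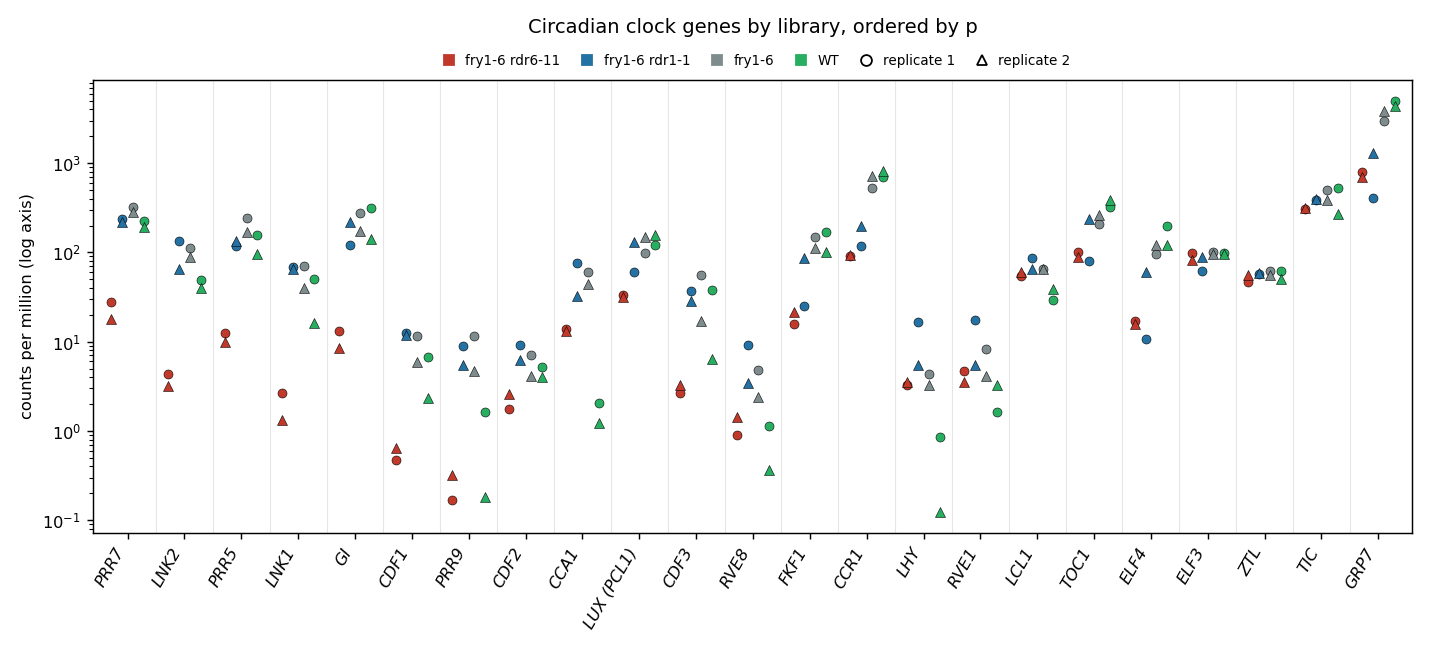
CPM (log axis) of the 23 clock genes in every library, ordered by the p of the comparison between the double mutants. On the left, *PRR7*, *LNK2* and *PRR5* have both *fry1-6 rdr6-11* points below all others, whereas *TOC1* and *GRP7* overlap, at 88.6 to 101 CPM for *TOC1* in *fry1-6 rdr6-11* and 80.0 and 236 CPM in *fry1-6 rdr1-1*.

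Among light signalling genes, those called lower were *PIF4*, *PIF5*, *BBX22* and *PHOT1*. Phytochromes are red-light receptors, and active phytochrome removes these bHLH factors (PIFs), which promote elongation in shade and at night. Of 22 light signalling genes 4 fell (18.2%, against 1.00% of all genes tested) and none rose (median −0.58). *PIF4* had 8.63 and 6.39 CPM in *fry1-6 rdr6-11*, against 162 and 177 CPM in *fry1-6 rdr1-1*, 137 and 116 CPM in *fry1-6* and 138 and 84.2 CPM in WT. It fell to a small part of the level in any other genotype (log2 fold change −4.49 ± 0.31 (SE), adjusted p = 0.0137). *PIF5*, listed as *PIL6*, had 16.4 and 14.1 CPM in *fry1-6 rdr6-11*, against 233 and 175 CPM in *fry1-6 rdr1-1*, 124 and 150.1 CPM in *fry1-6* and 70.9 and 88.8 CPM in WT (log2 fold change −3.74 ± 0.24 (SE), adjusted p = 0.0116). The B-box factor *BBX22*, listed as *LZF1*, had 15.9 and 12.8 CPM in *fry1-6 rdr6-11*, against 61.7 and 66.2 CPM in *fry1-6 rdr1-1*, 71.8 and 74.3 CPM in *fry1-6* and 68.9 and 65.5 CPM in WT, and only the *fry1-6 rdr6-11* libraries lay outside a narrow range (log2 fold change −2.15 ± 0.16 (SE), adjusted p = 0.0156). The blue-light receptor *PHOT1* had 158 and 159 CPM in *fry1-6 rdr6-11*, against 467 and 479 CPM in *fry1-6 rdr1-1* (log2 fold change −1.58 ± 0.24 (SE), adjusted p = 0.0434). The factors *PIF3*, at 0.19, and *PIL5*, at −0.79 on the log2 scale, were not called. Nor were the phytochromes: *PHYA* had a log2 fold change of −0.52, *PHYB* of −0.47 and *PHYC* of −0.11. *HY5*, a bZIP factor that promotes greening, had 6.59 and 9.33 CPM in *fry1-6 rdr6-11*, against 3.89 and 3.35 CPM in *fry1-6 rdr1-1* and was not called either (log2 fold change 1.14 ± 0.35 (SE), adjusted p = 0.19). No light signalling gene was called without *fry1-6 rdr6-11* replicate 1, *fry1-6 rdr6-11* replicate 2 or *fry1-6 rdr1-1* replicate 1, and without *fry1-6 rdr1-1* replicate 2 it was 3.

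Further transcription factors of this kind lay outside the list and were called. *COL5*, a B-box relative of CONSTANS, had 18.1 and 16.04 CPM in *fry1-6 rdr6-11*, against 432 and 276 CPM in *fry1-6 rdr1-1*, 179 and 283 CPM in *fry1-6* and 116 and 122 CPM in WT (log2 fold change −4.37 ± 0.33 (SE), adjusted p = 0.0156). *BBX28*, another B-box protein, had 0.297 and 0.552 CPM in *fry1-6 rdr6-11*, against 30.5 and 12.7 CPM in *fry1-6 rdr1-1* (log2 fold change −5.65 ± 0.74 (SE), adjusted p = 0.0304). *PIF7*, *STO* (BBX24), *BBX18* and the Myb factor *EPR1* (AT1G18330), picked after their values were seen, were called with log2 fold changes of −1.76, −3.54, −3.89 and −3.82. *SIG5*, listed as *SIGE*, a sigma factor that directs light-dependent transcription in the chloroplast, had 3.82 and 5.65 CPM in *fry1-6 rdr6-11*, against 47.7 and 26.4 CPM in *fry1-6 rdr1-1* (log2 fold change −2.97 ± 0.33 (SE), adjusted p = 0.0256). It was the only member called among 12 genes of chloroplast gene expression.

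Promoters are shown for the called member of smallest p in 4 of these lists and among the genes called higher, to let the decreases be read beside the DNA upstream of the gene. Each is the 250 bases before the gene start on the gene's strand in the RefSeq TAIR10.1 assembly, and capitals mark a G-box (CACGTG, the core bound by PIFs and HY5) or an I-box (GATAAG, common in light-regulated promoters). The deposited counts carry no coordinates, and these positions come from the reference annotation.
LHCB4.2 (chr3:2717307-2717556, plus strand): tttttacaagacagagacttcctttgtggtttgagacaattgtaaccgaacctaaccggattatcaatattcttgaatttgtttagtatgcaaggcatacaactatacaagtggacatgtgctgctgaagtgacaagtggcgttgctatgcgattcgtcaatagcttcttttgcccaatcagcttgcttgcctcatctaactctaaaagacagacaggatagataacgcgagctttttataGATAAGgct
CAO (CH1, chr1:16851272-16851521, minus strand): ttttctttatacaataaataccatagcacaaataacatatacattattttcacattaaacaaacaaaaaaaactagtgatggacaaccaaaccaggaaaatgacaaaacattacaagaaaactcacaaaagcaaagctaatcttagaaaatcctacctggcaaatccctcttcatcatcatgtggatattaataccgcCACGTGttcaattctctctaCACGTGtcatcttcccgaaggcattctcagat
PRR7 (chr5:642031-642280, minus strand): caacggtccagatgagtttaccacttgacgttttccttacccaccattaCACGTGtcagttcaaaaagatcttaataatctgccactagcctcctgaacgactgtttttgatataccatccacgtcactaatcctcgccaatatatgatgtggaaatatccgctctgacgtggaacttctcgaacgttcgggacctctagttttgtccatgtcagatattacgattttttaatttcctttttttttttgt
PIF5 (PIL6, chr3:21830838-21831087, minus strand): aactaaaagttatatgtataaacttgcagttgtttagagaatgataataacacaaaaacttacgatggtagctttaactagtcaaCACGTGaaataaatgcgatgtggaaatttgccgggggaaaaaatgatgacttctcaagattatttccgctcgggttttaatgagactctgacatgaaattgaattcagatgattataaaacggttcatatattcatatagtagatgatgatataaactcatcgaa
AT3G07870 (chr3:2510320-2510569, plus strand): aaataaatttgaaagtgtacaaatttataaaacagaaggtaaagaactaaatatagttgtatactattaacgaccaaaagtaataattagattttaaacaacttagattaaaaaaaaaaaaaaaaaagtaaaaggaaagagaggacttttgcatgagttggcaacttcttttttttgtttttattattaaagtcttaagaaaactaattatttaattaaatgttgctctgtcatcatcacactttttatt
The *LHCB4.2* window held an I-box, those of *PRR7* and *PIF5* a G-box each and that of *CAO* 2 G-boxes, whereas that of the F-box gene *AT3G07870*, which rose, held no match to the motifs searched. Both strands were searched, also for the evening element (AAAATATCT) and the CCA1-binding site (AAAAATCT), neither of which contains the other. The G-box was in 11.8% of the 228 promoters of genes called lower, 0.0% of the 23 of genes called higher and 6.77% of 22605 nuclear promoters of genes tested. The evening element was in 8.33%, 4.35% and 2.34% of the same promoters, the CCA1-binding site in 11.0%, 4.35% and 6.49%, and the I-box in 17.5%, 8.7% and 12.5%. Among the 23 clock promoters 26.1% held the evening element, 4.35% the CCA1-binding site, 30.4% a G-box and 8.7% an I-box. In the same order of motifs the shares were 2.17%, 8.7%, 17.4% and 28.3% of the 46 photosynthesis promoters. They were 21.4%, 14.3%, 14.3% and 7.14% of the 14 tetrapyrrole promoters. Of the 22 light signalling promoters they were 0%, 0%, 18.2% and 9.09%. A match is a description of the letters and not a measured binding site.

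The gene of smallest adjusted p encoded a protein kinase. *CIPK20*, a kinase that pairs with calcineurin B-like calcium sensors, had 0.637 and 0.276 CPM in *fry1-6 rdr6-11*, against 52.1 and 41.0 CPM in *fry1-6 rdr1-1*, 32.1 and 26.3 CPM in *fry1-6* and 8.44 and 9.14 CPM in WT. Its *fry1-6 rdr6-11* libraries held 15 and 6 counts, and the other 6 libraries stood far above them (log2 fold change −6.64 ± 0.36 (SE), adjusted p = 0.0113). *AT1G73480*, an alpha/beta hydrolase, had 1.44 and 1.20 CPM in *fry1-6 rdr6-11*, against 40.3 and 57.3 CPM in *fry1-6 rdr1-1* (log2 fold change −5.20 ± 0.71 (SE), adjusted p = 0.0323). *GBSS1*, the granule-bound starch synthase that makes amylose, had 2.97 and 2.76 CPM in *fry1-6 rdr6-11*, against 66.9 and 26.6 CPM in *fry1-6 rdr1-1*, 22.9 and 16.7 CPM in *fry1-6* and 7.01 and 3.13 CPM in WT (log2 fold change −4.02 ± 0.56 (SE), adjusted p = 0.0345). *MYBL2*, a repressor of anthocyanin synthesis, had 13.9 and 7.26 CPM in *fry1-6 rdr6-11*, against 105 and 120.2 CPM in *fry1-6 rdr1-1*, 147 and 79.1 CPM in *fry1-6* and 75.8 and 52.3 CPM in WT, and it fell (log2 fold change −3.41 ± 0.44 (SE), adjusted p = 0.0297). *AT5G42250*, an alcohol dehydrogenase-like gene, had 3.06 and 2.48 CPM in *fry1-6 rdr6-11*, against 16.7 and 20.1 CPM in *fry1-6 rdr1-1*, with little spread within either genotype (log2 fold change −2.73 ± 0.22 (SE), adjusted p = 0.0156). *AT4G20820*, of the berberine bridge enzyme family, had 1.91 and 1.20 CPM in *fry1-6 rdr6-11*, against 29.1 and 36.7 CPM in *fry1-6 rdr1-1* (log2 fold change −4.39 ± 0.41 (SE), adjusted p = 0.0167). *AT4G13575*, an uncharacterised protein, had 5.57 and 5.24 CPM in *fry1-6 rdr6-11*, against 35.7 and 32.6 CPM in *fry1-6 rdr1-1*, 15.9 and 18.5 CPM in *fry1-6* and 5.44 and 5.46 CPM in WT, and here the *fry1-6 rdr6-11* level was that of WT (log2 fold change −2.66 ± 0.16 (SE), adjusted p = 0.0116). *AT5G06980*, also uncharacterised, had 1.02 and 0.598 CPM in *fry1-6 rdr6-11*, against 35.9 and 12.7 CPM in *fry1-6 rdr1-1* (log2 fold change −4.89 ± 0.66 (SE), adjusted p = 0.0312), and *AT3G46370*, a leucine-rich repeat kinase, 2.08 and 1.29 CPM in *fry1-6 rdr6-11*, against 12.1 and 18.2 CPM in *fry1-6 rdr1-1* (log2 fold change −3.16 ± 0.43 (SE), adjusted p = 0.0313).

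Further called genes of plastid function, outside the lists, were picked after their values were seen. *CLA1*, the deoxyxylulose-phosphate synthase that opens plastid isoprenoid synthesis, had 239 and 227 CPM in *fry1-6 rdr6-11*, against 855 and 654 CPM in *fry1-6 rdr1-1* (log2 fold change −1.70 ± 0.23 (SE), adjusted p = 0.0312). Of vitamin E synthesis, tocopherol cyclase *VTE1*, phytol kinase *VTE5* and gamma-tocopherol methyltransferase *G-TMT* fell with log2 fold changes of −1.21, −1.03 and −1.88. *STN7*, the kinase that phosphorylates the mobile antenna, had 61.4 and 53.1 CPM in *fry1-6 rdr6-11*, against 173 and 148 CPM in *fry1-6 rdr1-1* (log2 fold change −1.49 ± 0.18 (SE), adjusted p = 0.029). *KEA3*, a thylakoid potassium antiporter, and *ARC5*, a dynamin-like protein of chloroplast division, fell by 1.55 and 1.26 on the log2 scale. *PSAD-2*, a photosystem I subunit, had 169 and 108 CPM in *fry1-6 rdr6-11*, against 1273 and 1179.8 CPM in *fry1-6 rdr1-1* (log2 fold change −3.14 ± 0.40 (SE), adjusted p = 0.0293).

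Few hormone genes passed the test. Abscisic acid (ABA) is the hormone of drought responses. Of 37 ABA and osmotic-stress genes 2 fell (5.41%, against 1.00% of all genes tested), none rose, and the median was −1.31. *ABA1*, the zeaxanthin epoxidase that makes an early ABA precursor in the plastid and also serves the xanthophyll cycle, had 44.2 and 33.6 CPM in *fry1-6 rdr6-11*, against 472 and 304 CPM in *fry1-6 rdr1-1*, 420.3 and 322 CPM in *fry1-6* and 245 and 186 CPM in WT (log2 fold change −3.32 ± 0.32 (SE), adjusted p = 0.0188). *RAB18*, a dehydrin induced by ABA, had 21.9 and 14.7 CPM in *fry1-6 rdr6-11*, against 60.3 and 117 CPM in *fry1-6 rdr1-1*, 116 and 127 CPM in *fry1-6* and 83.1 and 78.5 CPM in WT (log2 fold change −2.28 ± 0.34 (SE), adjusted p = 0.0422). The proline synthesis gene *P5CS1* had 59.96 and 80.4 CPM in *fry1-6 rdr6-11*, against 347 and 445 CPM in *fry1-6 rdr1-1* and was not called (log2 fold change −2.50 ± 0.51 (SE), adjusted p = 0.0896). The cold-response gene *COR15A* had 30.6 and 26.8 CPM in *fry1-6 rdr6-11*, against 68.7 and 257 CPM in *fry1-6 rdr1-1*, where the *fry1-6 rdr1-1* replicates differed widely (log2 fold change −2.50 ± 1.14 (SE), adjusted p = 0.34). Among 23 auxin genes the repressors *IAA14* and *IAA17* (listed as *AXR3*) fell, with 5.82 and 5.75 CPM in *fry1-6 rdr6-11*, against 16.5 and 18.3 CPM in *fry1-6 rdr1-1* for *IAA14* (log2 fold change −1.59 ± 0.17 (SE), adjusted p = 0.0234) and 5.65 and 7.59 CPM in *fry1-6 rdr6-11*, against 23.5 and 17.6 CPM in *fry1-6 rdr1-1* for *IAA17* (log2 fold change −1.63 ± 0.23 (SE), adjusted p = 0.0347). The share called lower was thus 8.7% of the auxin genes, against 1.00% of all genes tested. *CKX4*, a cytokinin oxidase, had 0.765 and 0.827 CPM in *fry1-6 rdr6-11*, against 4.21 and 4.40 CPM in *fry1-6 rdr1-1* (log2 fold change −2.43 ± 0.30 (SE), adjusted p = 0.0293), and 1 of 17 cytokinin genes was called (5.88%). *RCAR3*, an ABA receptor of the PYR family that was not among the 37 genes, rose. It had 183 and 162 CPM in *fry1-6 rdr6-11*, against 70.3 and 56.9 CPM in *fry1-6 rdr1-1* (log2 fold change 1.44 ± 0.19 (SE), adjusted p = 0.0312). *ETR2*, an ethylene receptor, rose too, with 15.1 and 15.6 CPM in *fry1-6 rdr6-11*, against 6.39 and 5.86 CPM in *fry1-6 rdr1-1* (log2 fold change 1.33 ± 0.21 (SE), adjusted p = 0.0457). No jasmonate gene of 28 was called by edgeR and 3 were by DESeq2, against 1283 of all 22744 genes tested. At an unadjusted p under 0.05, 7 were lower and 0 higher, against 2243 lower and 1474 higher of all genes tested. The ABA and auxin genes had no call without *fry1-6 rdr6-11* replicate 1, *fry1-6 rdr6-11* replicate 2 or *fry1-6 rdr1-1* replicate 1, and without *fry1-6 rdr1-1* replicate 2 it was 1 of the ABA genes and none of the auxin genes.

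Sulfur assimilation, which supplies the sulfate donor whose by-product FRY1 removes, had a low median with a wide spread between the *fry1-6 rdr1-1* replicates. Of 23 sulfur genes 1 fell (4.35%, against 1.00% of all genes tested). An unadjusted p under 0.05 was found for 12, all lower, against 2243 lower of all 22744 genes tested, and the median was −1.22. The called gene was *SULTR1;2*, a root sulfate transporter, with 20.9 and 14.4 CPM in *fry1-6 rdr6-11*, against 65.8 and 56.9 CPM in *fry1-6 rdr1-1*, 23.8 and 36.3 CPM in *fry1-6* and 17.7 and 24.3 CPM in WT (log2 fold change −1.80 ± 0.29 (SE), adjusted p = 0.0474). *LSU1*, a marker of sulfur deficiency, had 1.02 and 0.644 CPM in *fry1-6 rdr6-11*, against 6.02 and 35.1 CPM in *fry1-6 rdr1-1*, 18.7 and 5.52 CPM in *fry1-6* and 36.2 and 3.74 CPM in WT, so that the single library *fry1-6 rdr1-1* replicate 2 was far above its pair (log2 fold change −4.61 ± 1.40 (SE), adjusted p = 0.187). *APR3*, a reductase of activated sulfate, had 36.1 and 38.0 CPM in *fry1-6 rdr6-11*, against 103 and 164 CPM in *fry1-6 rdr1-1* (log2 fold change −1.85 ± 0.36 (SE), adjusted p = 0.0791). Without any 1 of the 4 double-mutant libraries, or with total-count scaling, no sulfur gene was called by edgeR. DESeq2 called 10.

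Of disease-resistance receptors of the NLR class, 3 of 132 fell (2.27%, against 1.00% of all genes tested) and none rose (median 0.08). The 3 were *RPP4*, *RPP5* and *RPP1*, named for resistance to downy mildew. *RPP4* had 43.9 and 48.6 CPM in *fry1-6 rdr6-11*, against 132 and 181 CPM in *fry1-6 rdr1-1*, 176 and 177 CPM in *fry1-6* and 305 and 281 CPM in WT (log2 fold change −1.76 ± 0.20 (SE), adjusted p = 0.0256). *RPP5*, a paralog in the same cluster on chromosome 4, had 92.4 and 106 CPM in *fry1-6 rdr6-11*, against 225 and 271 CPM in *fry1-6 rdr1-1* (log2 fold change −1.32 ± 0.20 (SE), adjusted p = 0.0414). *RPP1* had 52.2 and 54.3 CPM in *fry1-6 rdr6-11*, against 101 and 101 CPM in *fry1-6 rdr1-1* (log2 fold change −0.92 ± 0.15 (SE), adjusted p = 0.0467). These clusters hold near-identical copies, between which reads could be split. No NLR gene was called once any 1 of the 4 double-mutant libraries was left out. Among 70 targets of microRNAs 1 fell (1.43%, near the 1.00% of all genes tested), *NF-YA1*, a CCAAT-binding factor under miR169, with 13.3 and 14.1 CPM in *fry1-6 rdr6-11*, against 26.6 and 26.3 CPM in *fry1-6 rdr1-1* (log2 fold change −0.95 ± 0.15 (SE), adjusted p = 0.0467).

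The 23 genes that rose in *fry1-6 rdr6-11* were few and of mixed function. *CML41*, a calmodulin-like protein of plasmodesmata, had 15.6 and 12.7 CPM in *fry1-6 rdr6-11*, against 1.44 and 1.37 CPM in *fry1-6 rdr1-1*, 2.41 and 3.12 CPM in *fry1-6* and 0.93 and 2.70 CPM in WT. Both *fry1-6 rdr6-11* libraries were above the other 6 (log2 fold change 3.33 ± 0.46 (SE), adjusted p = 0.0325). *NAC041*, a NAC-domain transcription factor, had 19.7 and 27.4 CPM in *fry1-6 rdr6-11*, against 5.74 and 3.92 CPM in *fry1-6 rdr1-1*, 5.75 and 3.96 CPM in *fry1-6* and 7.51 and 6.50 CPM in WT (log2 fold change 2.29 ± 0.30 (SE), adjusted p = 0.0304). *KCS13*, a condensing enzyme of very-long-chain fatty acid elongation, had 20.6 and 18.8 CPM in *fry1-6 rdr6-11*, against 7.55 and 5.53 CPM in *fry1-6 rdr1-1* (log2 fold change 1.59 ± 0.26 (SE), adjusted p = 0.0467). The F-box gene *AT3G07870* had 65.3 and 58.8 CPM in *fry1-6 rdr6-11*, against 25.5 and 28.0 CPM in *fry1-6 rdr1-1*, 19.5 and 19.5 CPM in *fry1-6* and 19.0 and 21.3 CPM in WT, with the smallest p among the genes that rose (log2 fold change 1.21 ± 0.14 (SE), adjusted p = 0.0281). *CLT3*, a chloroplast transporter of glutathione precursors, had 35.9 and 42.2 CPM in *fry1-6 rdr6-11*, against 17.4 and 14.3 CPM in *fry1-6 rdr1-1* (log2 fold change 1.30 ± 0.17 (SE), adjusted p = 0.031). *AT1G13640*, a phosphatidylinositol kinase-like gene, had 105 and 108 CPM in *fry1-6 rdr6-11*, against 42.1 and 37.7 CPM in *fry1-6 rdr1-1* (log2 fold change 1.42 ± 0.19 (SE), adjusted p = 0.0307). *AT3G53730*, a histone H4 gene, had 39.4 and 42.7 CPM in *fry1-6 rdr6-11*, against 18.2 and 21.4 CPM in *fry1-6 rdr1-1*, 30.1 and 31.1 CPM in *fry1-6* and 51.7 and 52.5 CPM in WT, where the *fry1-6 rdr1-1* libraries were the lowest and WT the highest (log2 fold change 1.05 ± 0.14 (SE), adjusted p = 0.0312). *AT2G32235*, an uncharacterised gene, had 41.2 and 43.4 CPM in *fry1-6 rdr6-11*, against 19.7 and 16.04 CPM in *fry1-6 rdr1-1*, 28.5 and 29.96 CPM in *fry1-6* and 1.57 and 1.78 CPM in WT, with all mutants above WT (log2 fold change 1.24 ± 0.16 (SE), adjusted p = 0.0294). Some of the called genes overlap a called partner in the annotation: *AT5G57760* and *AT5G57770*, at log2 fold changes of 1.75 and 1.73, overlap each other, as do *AT5G58570* and the noncoding *AT5G08840*, at 1.25 and 1.53. The library kit was not stated to mark strand, so reads from such partners could not be told apart.

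The same holds for the noncoding RNAs called lower, each of which overlaps another counted gene. Of 1390 long noncoding, antisense and other noncoding RNAs tested 11 fell (0.791%, against 1.00% of all genes tested) and 3 rose. *AT2G08665* overlaps the antenna gene *LHB1B2* and had nearly the same level, with 1377 and 1435 CPM in *fry1-6 rdr6-11*, against 11587 and 11802 CPM in *fry1-6 rdr1-1* (log2 fold change −3.06 ± 0.37 (SE), adjusted p = 0.029). *AT3G08405* overlaps *LNK2*, *AT1G05207* overlaps *LHCB6* and *AT3G08795* overlaps *CRD1*, and they fell by 5.34, 2.56 and 2.53 on the log2 scale. Among the noncoding RNAs called higher, *AT3G44798* overlaps no counted gene and had 20.3 and 18.5 CPM in *fry1-6 rdr6-11*, against 9.03 and 9.05 CPM in *fry1-6 rdr1-1* (log2 fold change 1.10 ± 0.17 (SE), adjusted p = 0.0455). *AT5G05725* had 2.55 and 3.95 CPM in *fry1-6 rdr6-11*, against 0.648 and 0.485 CPM in *fry1-6 rdr1-1*, 3.07 and 2.92 CPM in *fry1-6* and 1.001 and 1.17 CPM in WT, where the low level was that of *fry1-6 rdr1-1* and WT (log2 fold change 2.51 ± 0.36 (SE), adjusted p = 0.0369). With genes that overlap another gene left out, 138 of 14424 genes were called, 125 of them lower.

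Genes that make siRNAs in *fry1-6* differed in a few members. The study's small RNA table gives 188 counted genes with more 21-nucleotide siRNAs in *fry1-6* than in WT, of which 177 were tested here. Of these 9 fell (5.08%, against 1.00% of all genes tested) and 1 rose, with a median of −0.17. The 9 included the antenna genes *LHCB2.2*, *LHCB3* and *LHB1B2*, the noncoding *AT2G08665*, which overlaps *LHB1B2*, and the kinase *CIPK20*. The gene that rose was the pseudogene *AT1G10160*, with 31.4 and 36.3 CPM in *fry1-6 rdr6-11*, against 14.6 and 13.5 CPM in *fry1-6 rdr1-1*, 20.8 and 17.9 CPM in *fry1-6* and 9.59 and 8.28 CPM in WT (log2 fold change 1.27 ± 0.17 (SE), adjusted p = 0.0312). There was no such call without *fry1-6 rdr6-11* replicate 1, *fry1-6 rdr6-11* replicate 2 or *fry1-6 rdr1-1* replicate 1, and without *fry1-6 rdr1-1* replicate 2 there were 2, both lower. With total-count scaling the median was 0.17 and 7 fell, to be read against a median of 0.35 over all genes. Of 23 genes of the siRNA pathway none was called by edgeR or DESeq2, 1 had an unadjusted p under 0.05, and the median was −0.20. *DCL4*, the Dicer that works with RDR6, had 20.7 and 25.6 CPM in *fry1-6 rdr6-11*, against 34.7 and 27.3 CPM in *fry1-6 rdr1-1* (log2 fold change −0.42 ± 0.19 (SE), adjusted p = 0.328). *AGO3*, an Argonaute, had 2.42 and 1.65 CPM in *fry1-6 rdr6-11*, against 3.19 and 6.71 CPM in *fry1-6 rdr1-1* (log2 fold change −1.28 ± 0.48 (SE), adjusted p = 0.261). The RFL clade of pentatricopeptide repeat (PPR) genes, known as a source of secondary siRNAs, had a median of 0.43, with none of 19 called by edgeR or DESeq2 and 3 at an unadjusted p under 0.05. All 245 PPR genes had a median of 0.28, and 2 of them fell (0.816%, near the 1.00% of all genes tested).

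Ribosomal protein genes and markers of other organs were not called. Of 145 cytosolic ribosomal protein genes none was called by edgeR or DESeq2 (2 at an unadjusted p under 0.05), with a median of 0.08. Of 19 root markers none was called by edgeR or DESeq2, with 0 at an unadjusted p under 0.05 and a median of −0.22, and their summed level was 649 and 556 CPM in *fry1-6 rdr6-11*, against 619.6 and 505 CPM in *fry1-6 rdr1-1*. Of 20 flower and seed markers 3 passed the filter and none was called by edgeR or DESeq2, with 0 at an unadjusted p under 0.05. Of 28 cell-cycle and replication genes none was called by edgeR and 6 by DESeq2, which called 1283 of all 22744 genes tested. At an unadjusted p under 0.05, 14 were lower and 1 higher (median −0.57), against 2243 lower and 1474 higher of all genes tested. Closest to a call there was *SYP111*, the cytokinesis syntaxin KNOLLE, with 17.2 and 17.2 CPM in *fry1-6 rdr6-11*, against 29.6 and 37.4 CPM in *fry1-6 rdr1-1* (log2 fold change −0.96 ± 0.16 (SE), adjusted p = 0.0507). Of 20 genes induced early by touch and wounding none was called by edgeR, and DESeq2 called 4, against 1283 of all 22744 genes tested. At an unadjusted p under 0.05, 4 were lower and 0 higher (median −0.92), against 2243 lower and 1474 higher of all genes tested. *ERF104*, an ethylene response factor, had 34.5 and 16.7 CPM in *fry1-6 rdr6-11*, against 62.4 and 112 CPM in *fry1-6 rdr1-1* (log2 fold change −1.77 ± 0.39 (SE), adjusted p = 0.107). *TCH2*, a calmodulin-like protein, had 21.03 and 17.5 CPM in *fry1-6 rdr6-11*, against 42.6 and 112 CPM in *fry1-6 rdr1-1* (log2 fold change −2.003 ± 0.45 (SE), adjusted p = 0.107).

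**Figure D5:**
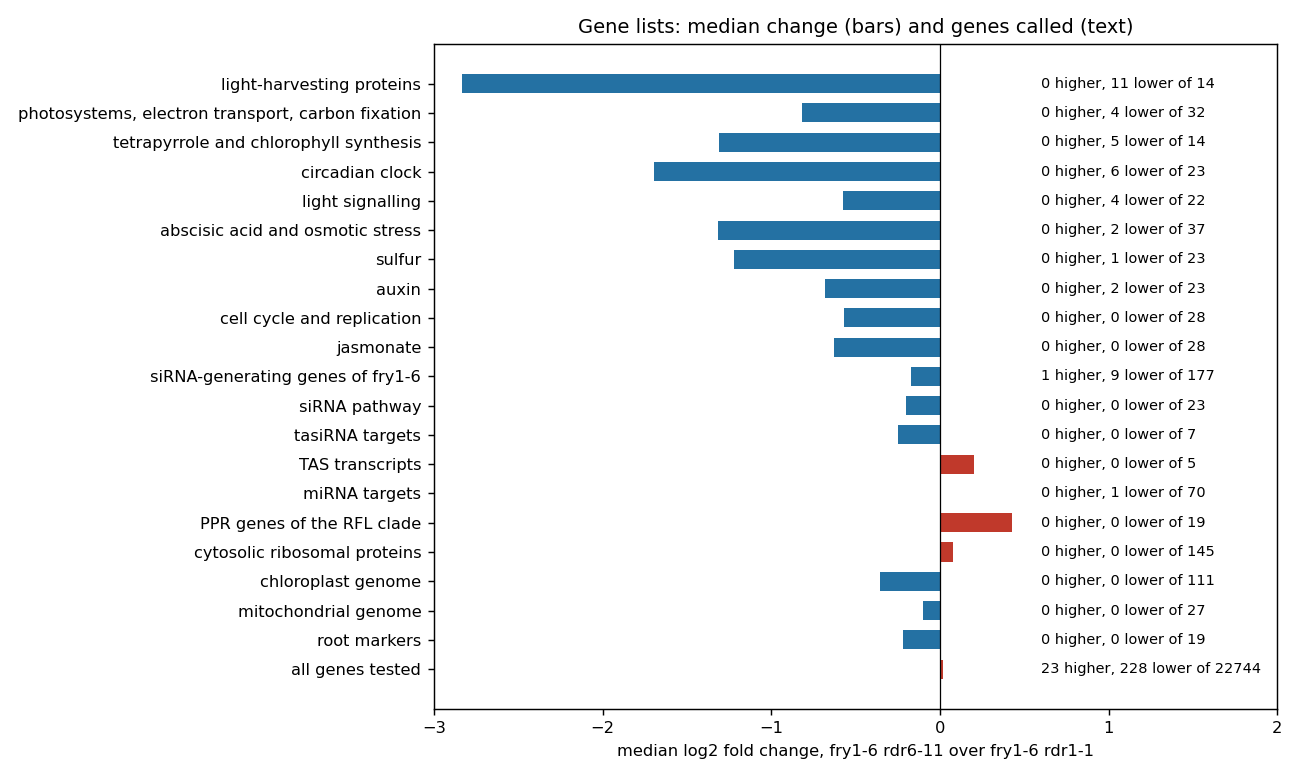
Median log2 fold change of *fry1-6 rdr6-11* over *fry1-6 rdr1-1* for each gene list (bars), with the numbers called higher and lower of those tested. Among the lists drawn, the light-harvesting genes have the lowest median, −2.84, and the ribosomal protein genes lie at 0.08.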

How the data were processed

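Whole-seedling mRNA was sequenced for 4 genotypes with 2 libraries each. The deposited files hold raw counts of reads per gene, 1 file a library. Their exon lengths served only to check the match to the annotation. Per the study's methods and the submitters' processing notes, reads were called with CASAVA, mapped with STAR 2.6 to the Araport11 genome and counted with featureCounts 1.6.4. A read with many positions was given 1 of them. Strand and overlap settings are not given in the sources used here. The labels name a TruSeq kit and the methods a NEBNext kit, so the kit is uncertain. The genotype tag and the titles of the *fry1-6 rdr1-1* libraries conflict, and groups followed the titles.

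Counts were tested in R 4.3.3 with edgeR 4.0.16 (limma 3.58.1): filterByExpr with a minimum count of 10 and a minimum total of 15, TMM scaling, a quasi-likelihood F test with 1 mean per genotype over all 8 libraries, two-sided, and Benjamini-Hochberg adjustment over all genes tested. The fit had 4 residual degrees of freedom, and the common biological coefficient of variation was 27.0%. An exact permutation test of 2 libraries against 2 could not go below 0.333 and was not used. DESeq2 1.42.0, which the study names for its comparisons, was an alternative, as were other scalings, filters, thresholds and sets of libraries. Replicates differed by more than sampling noise (chi-square per gene 18.1 in *fry1-6 rdr6-11* and 40.8 in *fry1-6 rdr1-1*). Counts were also simulated for the comparison between the double mutants (22468 genes, 50 changed per fold size). Recovery was 16% at 2-fold, 96% at 4-fold and 100% at 8-fold and at 16-fold, and the fit called 3 of 22268 unchanged genes. The simulated libraries were independent, their spread followed the mean level alone, and changed genes had a mean log2 CPM of at least 1. The real libraries had no such guarantee, so these rates need not hold for them. Totals of 15069329 to 26285519 counts put 3 counts at 0.121 to 0.215 CPM, a limit that covers counting error only.

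Identifiers were matched to the RefSeq annotation of TAIR10.1, where 37065 of 37361 (99.2%) were found and 10282 overlapped another counted gene. Promoters were read from that genome. The 60 gene lists kept 974 hand-written entries and dropped 40 whose symbol was not in the reference and 28 not counted. The list of siRNA-generating genes came from the study's small RNA table. The comparison and the lists were chosen with earlier results of these data known. Genes named with values were drawn from the mutated genes, the *TAS* transcripts and their targets, the largest and most significant calls (15 each way, 5 for noncoding classes and 10 by adjusted p), and up to 4 called members of each list or, where none was called, the 2 of smallest p. Further genes, among them uncalled members that show where a list ended, were picked after their values were seen.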

Additional observations from a re-analysis of the deposited data

How the results depend on the processing

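The number of calls depended on the fit. The 96 called genes named in the text kept their sign in every alternative that could fit them. However, the double-mutant libraries of each of the 228 genes called lower and the 23 called higher did not overlap. Leaving out 1 library could therefore hardly change a sign. Against 251 genes called (23 higher, 228 lower), total-count scaling called 141 (41 higher, 100 lower), DESeq2 1283 (251 higher, 1032 lower), edgeR on the 4 double-mutant libraries 1121 (262 higher, 859 lower) and edgeR without overlapping genes 138 (13 higher, 125 lower). An adjusted p under 0.01 left 0, while a 2-fold minimum left 241. With DESeq2 size factors, without a filter, with a minimum of 10 counts throughout or without organelle genes the number of calls stayed between 256 and 348. Leaving out 1 library of any genotype gave 0 to 488 calls (0 to 62 higher, 0 to 426 lower). Leaving out a double-mutant library left 0 to 3 photosynthesis genes, 0 to 1 tetrapyrrole genes, 0 to 2 clock genes and 0 to 3 light signalling genes called lower. DESeq2 called 29 photosynthesis, 12 clock and 9 light signalling genes lower, the 4-library fit called 25 photosynthesis and 10 clock genes lower, and total-count scaling called 2 tetrapyrrole genes lower. A lone library left in a genotype is assumed to vary like the others. The cause of these changes was not tested.

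Replicate numbers are shared in the labels, but no source pairs the libraries. Over all genes tested, deviations of same-numbered double-mutant libraries from their genotype's mean correlated at 0.183. With 2 libraries a genotype both pairs give the same value, so this was 1 comparison. Of genes that moved at least 2-fold between replicates in both double mutants, 22 and 50 moved the same way and 16 in opposite directions. With the replicate number as a block edgeR called 175 genes (12 higher, 163 lower), of which 154 were among the 251, and with the block on the 4 double-mutant libraries 2013 (551 higher, 1462 lower).

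Signs that changed belonged to genes that were not called and to list medians. The siRNA-generating genes had a median of 0.17 with total-count scaling, which moves the median of all genes to 0.35, and the NLR median ran from −0.0028 to 0.22 when 1 double-mutant library was left out. With total-count scaling the log2 fold changes that changed sign were *RBCS1A* 0.23, *GRP7* 0.12, *ETT* 0.052, *TAS1C* 0.14, *GAPA* 0.32, *AT5G24240* 0.21, *PHYC* 0.23 and *ARF2* 0.085. Others were *GRP7* 0.0077 (replicate block, only the 4 double-mutant libraries), *GAPA* 0.015 (at least 10 counts in every library) and *AT5G38005* −0.00080 (DESeq2). With 1 library left out at a time, the fold changes that crossed 0 ran as follows: *PIF3* −0.23 to 0.77, *PHYA* −0.92 to 0.025, *RDR1* −0.18 to 0.71, *RBCS1A* −0.18 to 0.0089, *GRP7* −0.82 to 0.86, *ETT* −0.81 to 0.52, *TAS1C* −1.02 to 1.30, *TAS2* −0.45 to 1.14, *ELF4* −1.89 to 0.63, *GAPA* −0.15 to 0.14, *RDR6* −0.32 to 0.57, *AT5G18040* −0.33 to 0.81, *AT5G24240* −4.06 to 4.18, *PHYC* −0.25 to 0.051, *AT5G38005* −2.66 to 3.87, *ARF4* −0.26 to 1.25, *TOC1* −1.32 to 0.25 and *SAL1* −0.089 to 1.07. Depth limited the lowest genes: under 0.121 CPM every library held fewer than 3 counts.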

Other observations

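Several small auxin up RNA (SAUR) genes, which promote cell expansion, were among the genes called lower, a group picked after its values were seen. Of 58 SAUR genes tested 4 fell, against 228 of all 22744 genes tested, and none rose. Their median was −0.36 on the log2 scale, against 0.02 over all genes. All 4 lie in a cluster on chromosome 1, of which 7 members were tested and 7 had negative values. *AT1G29460* had 0.765 and 1.29 CPM in *fry1-6 rdr6-11*, against 5.93 and 6.22 CPM in *fry1-6 rdr1-1*, 4.01 and 3.25 CPM in *fry1-6* and 1.57 and 1.96 CPM in WT (log2 fold change −2.56 ± 0.33 (SE), adjusted p = 0.0302). *AT1G29430*, *AT1G29450* and *AT1G29500* had log2 fold changes of −1.96, −2.14 and −1.75. Reads could be split between such similar neighbours.

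*ABCB19*, an auxin efflux transporter of the plasma membrane, had 82.9 and 87.6 CPM in *fry1-6 rdr6-11*, against 211 and 217 CPM in *fry1-6 rdr1-1*, 154 and 159 CPM in *fry1-6* and 167 and 147 CPM in WT (log2 fold change −1.33 ± 0.15 (SE), adjusted p = 0.0266). *SNG1*, which makes the sunscreen sinapoylmalate, and its neighbours *SCPL13* and *scpl10*, of the same serine carboxypeptidase-like family, had log2 fold changes of −1.39, −1.09 and −3.06. *NDA1*, an alternative NAD(P)H dehydrogenase of mitochondria, had 3.91 and 2.57 CPM in *fry1-6 rdr6-11*, against 80.8 and 29.2 CPM in *fry1-6 rdr1-1* (log2 fold change −4.08 ± 0.51 (SE), adjusted p = 0.0293).

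Calls were also counted along the chromosomes. Within 1 Mb of *RDR6* on chromosome 3, 467 genes were tested, and 2 were called higher (*CML41* and *AT3G50810*, 0.428%) and 3 lower (0.642%), against 0.101% higher and 1.00% lower of all genes tested. The share called lower depended on the window. Within 2 Mb of *RDR6* it was 3 higher (0.34%) and 19 lower (2.15%) of 883, and within 5 Mb 4 higher (0.228%) and 26 lower (1.48%) of 1751. Within 1 Mb of *RDR1* on chromosome 1 it was 1 higher (0.181%) and 8 lower (1.45%) of 552. Within 1 Mb of *FRY1* on chromosome 5, where both genotypes carry the same allele, it was 1 higher (0.187%) and 13 lower (2.43%) of 535. Within 2 Mb and 5 Mb the shares called lower were 1.12% and 1.06% around *RDR1* and 1.81% and 1.5% around *FRY1*. Of the 23 genes called higher 11 lay on chromosome 5 (0.213% of 5165 tested there) and none on chromosome 4, where 35 of 3434 genes tested were called lower (1.02%).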
